A study of Mus musculus with 12 samples.

Results

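The Sprouty and Spred genes were followed in distal colon from which Spry2 had been removed in the epithelium. The 7 mouse genes of the family, Spry1, Spry2, Spry3, Spry4, Spred1, Spred2 and Spred3, were taken by gene symbol from a table of transcript abundances. They accounted for 7 of 35241 gene symbols and 15 of 113193 transcripts. RNA was sequenced from full-thickness distal colon of 12 mice. The 6 Spry2IEKO mice carried homozygous floxed Spry2 and Vil1::Cre, in which the villin promoter drives Cre in intestinal epithelial cells. The 6 Spry2FF mice were Cre-negative littermates with the same floxed alleles. Litter A gave 3 mice per genotype, as did litter B. The Spry2IEKO group held 5 females and 1 male, and the Spry2FF group held 3 of each sex. The labels give an age of 6 weeks in one protocol and of 8 weeks in another, and no treatment is given.

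Sprouty and Spred proteins are inhibitors of signaling from receptor tyrosine kinases through Ras and ERK. Both families share a cysteine-rich carboxy-terminal domain that brings them to membranes. Sprouty genes are themselves induced by ERK signaling, so they close a negative feedback loop, and Sprouty2 also binds the adapter Grb2 and the ubiquitin ligase Cbl. Spred proteins carry an amino-terminal EVH1 domain that recruits neurofibromin (Nf1), a protein that turns Ras off.

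Abundances are given as normalized TPM, that is, TPM scaled once more between mice, and a gene's value is the sum over its transcripts. Totals per mouse ran from 918816 to 1069158, with 18655 to 19753 genes above 0, and the read number of a library cannot be recovered from TPM. Library names began differently in each litter, and the labels do not say what this stands for. Any batch it marks cannot be told apart from litter. Of the 12 epithelial markers examined, 6 had an unadjusted p under 0.05 (limma), beside 6.18% of all genes tested. These 6 were lower in Spry2IEKO mice, and none passed after adjustment. Of the 12, 10 had a log2 difference below 0 and 2 above. The summed level of the 12 was 8455 to 10981 normalized TPM in Spry2IEKO mice (median 9848) and 9945 to 12415 in Spry2FF mice (median 10771, exact permutation p = 0.0509). The 8 leukocyte markers summed to 107 to 1149 (median 285) in Spry2IEKO and 78.4 to 460 (median 213) in Spry2FF mice, and all 8 had a log2 difference above 0. The 6 adipocyte markers summed to 7.63 to 252 (median 10.4) in Spry2IEKO and 7.43 to 24.4 (median 8.42) in Spry2FF mice, and the 2 highest mice were Spry2IEKO replicates 4 and 5. None of the 8 markers each of smooth muscle, fibroblasts, endothelium, and neurons with glia, nor Kit or Ano1 of interstitial cells, had an unadjusted limma p under 0.05. Adipoq and Lep, which define fat cells, were listed at 0 in some mice.

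The deleted gene, Spry2, was lower in all 6 Spry2IEKO mice than in any Spry2FF mouse, but most of its RNA remained. Spry2 (ENSMUSG00000022114) lies at chr14:105891947-105896819 on the minus strand of GRCm38 (mm10) and was measured as 1 transcript of 2 exons, Spry2-201, that encodes 315 residues. It was 18.5 to 22.5 normalized TPM in Spry2IEKO mice (median 19.3) and 22.8 to 32.3 in Spry2FF mice (median 28.4). The highest Spry2IEKO mouse, replicate 8, stood just under the lowest Spry2FF mouse, replicate 2. The means were 20.04 ± 1.59 (SD, n = 6) and 27.7 ± 3.29 (SD, n = 6), a difference of -7.69 (exact permutation test over mice, two-sided p = 0.00216, the smallest that 6 against 6 allows). Complete separation with lower values in Spry2IEKO mice was seen for 0.214% of the 15880 genes tested (mean of at least 0.5). By limma on log2(normalized TPM + 0.5), the change of Spry2 was -0.45 (SE 0.0877, 95% interval -0.64 to -0.26). Its unadjusted limma p of 0.000174 ranked 16 among all genes and its adjusted p was 0.16, so it did not pass a threshold of 0.05 across the transcriptome.

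The remaining Spry2 was close to the same share in both litters. Litter A had a mean of 19.9 in Spry2IEKO and 27.9 in Spry2FF mice, leaving 71.3% of the control level. Litter B had 20.2 and 27.6, leaving 73.3%. The fitted level over all mice was 73.0% of control, with an interval of 64.01% to 83.2%. The genotype difference in litter B less that in litter A was 0.03 on the log2 scale (SE 0.185, limma adjusted p = 0.998). Exchanging genotypes only within litters gave an exact permutation p of 0.005, again the smallest possible, and among females alone the difference was -9.37 (exact permutation test, 5 against 3, p = 0.0179). In whole-tissue RNA, fewer cells of a type and less RNA per cell cannot be told apart, and neither can Spry2 from other cell layers, from epithelial cells that kept the gene, or from parts of the locus outside the deleted segment. The floxed exons are not given in the sources used here. With the epithelial markers as a covariate, the log2 change of Spry2 was -0.49 (limma adjusted p = 0.972).

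Genes next to Spry2 served to show whether its neighborhood moved with it. Of 33 annotated genes within 1 Mb, 5 were tested, and none had an unadjusted limma p under 0.05, beside 6.18% of all genes. The nearest, Trim52, was 0.961 ± 0.437 (SD, n = 6) in Spry2IEKO and 1.33 ± 0.686 (SD, n = 6) in control mice. Ndfip2, an adaptor of Nedd4-type ubiquitin ligases and the most abundant neighbor, was 204 ± 25.7 (SD, n = 6) and 203 ± 13.99 (SD, n = 6) in the same order. Rbm26 changed by 0.15 (SE 0.114), and the pseudogenes Gm16259 and Gm48971 by -1.02 (SE 0.613) and 0.48 (SE 0.612). Gm48971 was tested through its Spry2IEKO mean of 0.854, its Spry2FF mean being 0.342.

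**Figure D1:**
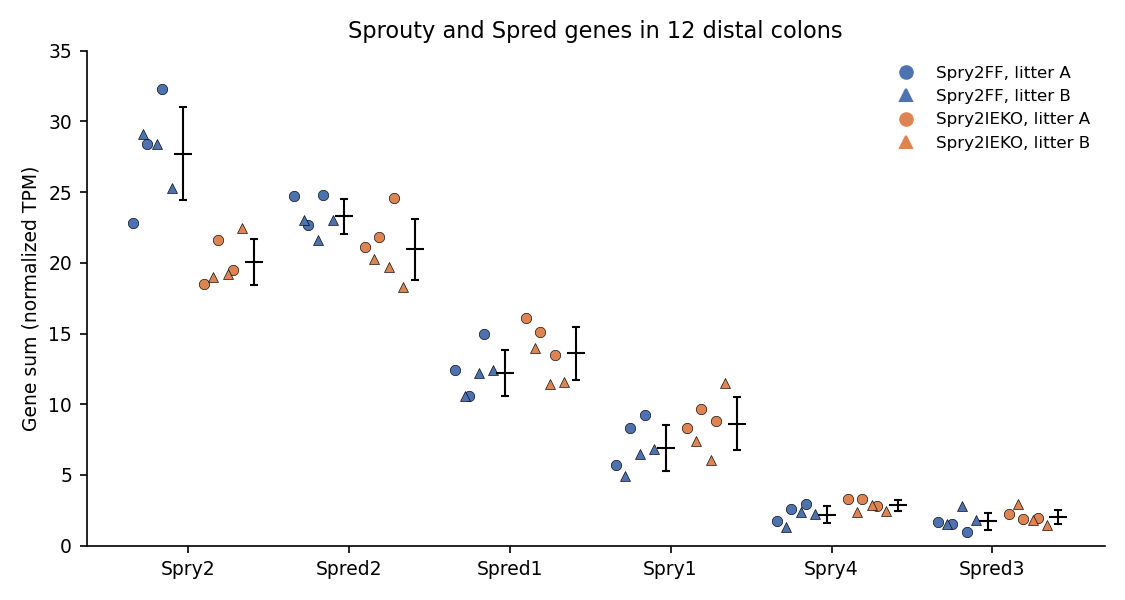
Gene sums in normalized TPM (vertical axis, linear) of 6 members in each of the 12 mice, by genotype (color) and litter (circles A, triangles B), with the mean and SD of each group as a black bar beside its points. Spry2 is the member whose groups do not overlap (18.5 to 22.5 against 22.8 to 32.3), and the other 5 members overlap between genotypes. Spry3, at most 0.126 in every mouse, is not drawn.

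No member of the family passed the threshold across all genes. Of the 6 members tested, 0 had a limma adjusted p under 0.05, beside 0.0315% of all genes tested, and 1, Spry2, had an unadjusted p under 0.05, beside 6.18% of all genes. Spry1, Spry4, Spred1 and Spred3 had log2 changes above 0, and Spred2 was below. The median change of the 6 was 0.19, beside 0.01 over all genes. Tests mouse by mouse were run for 7 members and are given without adjustment.

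Spry4 (ENSMUSG00000024427), a Sprouty expressed at a low level here, had a mean 130% of that in control mice. It was 2.36 to 3.32 normalized TPM in Spry2IEKO mice (median 2.87) and 1.30 to 2.92 in Spry2FF mice (median 2.30). Replicates 4 and 5 of Spry2IEKO were above all controls, and the other 4 lay within the control range. The means were 2.86 ± 0.3996 (SD, n = 6) and 2.20 ± 0.588 (SD, n = 6), and the exact permutation p was 0.0519. By the same exact test the p was 0.025 within litters, 0.0476 on the log2 scale, 0.0823 after scaling to equal totals and 0.125 in females alone, and it ran from 0.0216 to 0.108 with 1 mouse left out. On the limma scale the change was 0.34 (SE 0.168, interval -0.03 to 0.70, adjusted p = 0.826). It was 0.33 within litter A, and litter B gave 0.35. The 2 mice above the controls were also those with the highest adipocyte, fibroblast (723 and 855) and endothelium (119 and 82.1) sums. They had the lowest epithelial sums of all mice (8455 and 8980), and replicate 4 had the highest leukocyte sum. The part of these cell types in the Spry4 values was not tested. With the epithelial markers as a covariate the change was 0.18.

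Spry1 (ENSMUSG00000037211, chr3:37639947-37644598), the Sprouty best known for restraining growth factor signals in kidney development, did not differ beyond the spread between mice. It was 6.03 to 11.5 normalized TPM in Spry2IEKO mice (median 8.56) and 4.90 to 9.27 in Spry2FF mice (median 6.65), and the groups overlapped. The means were 8.61 ± 1.87 (SD, n = 6) and 6.91 ± 1.63 (SD, n = 6; exact permutation p = 0.128). The p fell to 0.0498 by the exact permutation test without Spry2IEKO replicate 12 and reached 0.249 without Spry2IEKO replicate 8. The limma change was 0.30 (SE 0.171, interval -0.07 to 0.67, adjusted p = 0.837), and it was 0.16 with the epithelial markers as a covariate.

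Spry3 (ENSMUSG00000061654) was near the floor of the measurement. It was 0.0264 to 0.0974 normalized TPM in Spry2IEKO mice (median 0.0593) and 0.0264 to 0.126 in Spry2FF mice (median 0.0856), above 0 in all 12 mice and below the limit of 0.5 for testing by limma. Its means of 0.0607 ± 0.0308 (SD, n = 6) and 0.0793 ± 0.0442 (SD, n = 6) differed by less than the spread between mice (exact permutation p = 0.411).

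Spred1 (ENSMUSG00000027351, chr2:117121374-117182279), the gene mutated in Legius syndrome, spanned 11.4 to 16.1 normalized TPM in Spry2IEKO mice (median 13.7) and 10.6 to 14.97 in Spry2FF mice (median 12.3). Replicates 4 and 5 of Spry2IEKO were above all controls. The means were 13.6 ± 1.85 (SD, n = 6) and 12.2 ± 1.62 (SD, n = 6; exact permutation p = 0.165). Their difference of 1.43 was 0.937 without Spry2IEKO replicate 4 and 1.99 without Spry2FF replicate 7 (exact permutation p = 0.331 and 0.0606). The limma change was 0.15 (SE 0.110, interval -0.08 to 0.39, adjusted p = 0.861), and it was -0.05 with the epithelial markers as a covariate. Spry2IEKO replicates 4 and 5 are the same 2 mice that stood above the controls for Spry4.

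Spred2 (ENSMUSG00000045671, chr11:19924375-20024026), the most abundant Spred, was lower in Spry2IEKO mice by a margin that depended on single mice. It was 18.3 to 24.6 normalized TPM in Spry2IEKO mice (median 20.7) and 21.6 to 24.8 in Spry2FF mice (median 23.0). All controls were above 4 of the 6 Spry2IEKO mice, while replicate 6 stood near the top of the control range. The means were 20.95 ± 2.14 (SD, n = 6) and 23.3 ± 1.23 (SD, n = 6), and the exact permutation p was 0.0498. That p was 0.00649 without Spry2IEKO replicate 6 and 0.0909 without Spry2FF replicate 7 (exact permutation tests), and it was above 0.05 in 10 of the 12 cases with 1 mouse left out. Within litters the exact permutation p was 0.02, and Spry2IEKO mice had 93.5% of the control mean in litter A and 86.2% in litter B. The limma change was -0.15 (SE 0.0758, interval -0.32 to 0.01, adjusted p = 0.826).

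Spred3 (ENSMUSG00000037239, chr7:29158829-29170411), the least abundant Spred, spanned 1.46 to 2.92 normalized TPM in Spry2IEKO mice (median 1.95) and 0.987 to 2.77 in Spry2FF mice (median 1.60). The means were 2.05 ± 0.498 (SD, n = 6) and 1.72 ± 0.589 (SD, n = 6; exact permutation p = 0.314). The difference of 0.331 was 0.156 without Spry2IEKO replicate 11, 0.185 without Spry2FF replicate 7, 0.542 without Spry2FF replicate 9 and 0.714 in females alone, with exact permutation p-values of 0.617, 0.543, 0.0541 and 0.0714. Its estimates were 0.45 in litter A and -0.01 in litter B on the log2 scale, and the difference between them was -0.45 (SE 0.378, limma adjusted p = 0.998). For 0 of the 6 members did the genotype difference itself differ between litters after adjustment, beside 0.0126% of all genes.

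**Figure D2:**
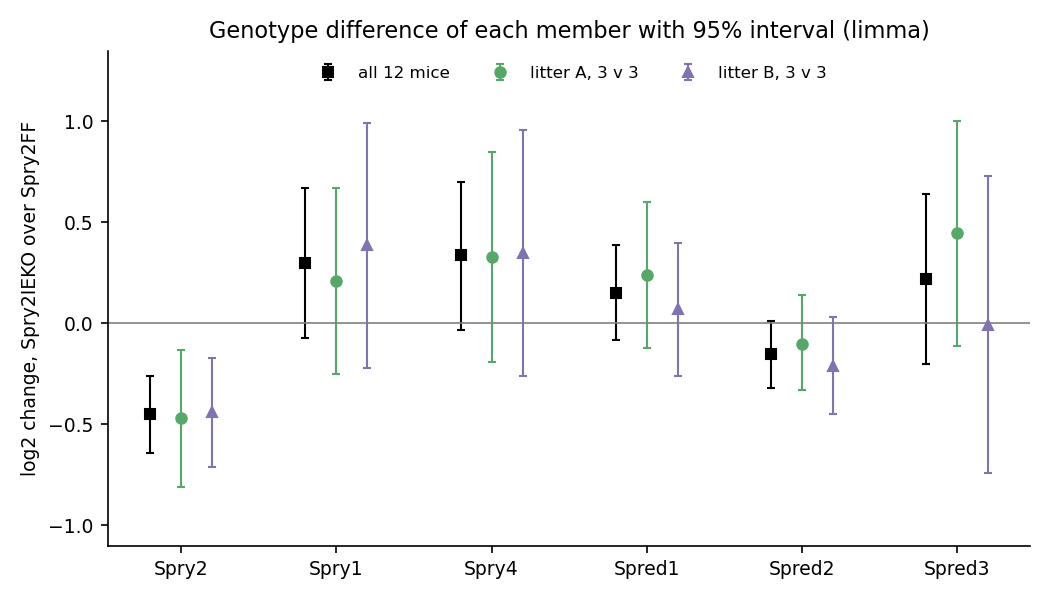
Log2 change of Spry2IEKO over Spry2FF for each tested member (vertical axis) with the 95% interval from limma, for all 12 mice (black squares) and for litters A (circles) and B (triangles) alone, each with 3 mice per genotype. The interval of Spry2 lies below 0 in all 3 fits (-0.64 to -0.26 for all mice), and the intervals of the other 5 members include 0.

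Summed over the family, the other members together showed a smaller difference than Spry2. These 6 were 41.9 to 51.7 normalized TPM in Spry2IEKO mice and 41.4 to 53.0 in Spry2FF mice, with means of 48.1 ± 4.06 (SD, n = 6) and 46.4 ± 3.73 (SD, n = 6). Their mean difference was 1.76, beside -7.69 for Spry2. In litter A the means were 51.52 in Spry2IEKO and 48.31 in Spry2FF mice, and in litter B 44.77 and 44.45. All 7 members summed to 68.2 ± 4.30 (SD, n = 6) and 74.1 ± 5.82 (SD, n = 6). Of the family sum, Spry2 made up 29.4% ± 2.47 (SD, n = 6) in the knockout and 37.4% ± 2.87 (SD, n = 6) in the control group.

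The order of the members, on a scale normalized for transcript length, ran from Spry2 through Spred2, Spred1, Spry1, Spry4 and Spred3 to Spry3 in Spry2FF mice. Spry2 exceeded Spred2 by 0.24 on the log2 scale, in 5 of 6 mice, and these neighbors did not differ beyond the spread (exact sign-flip permutation test, adjusted p over 6 neighboring pairs = 0.075). Spry4 and Spred3 did not differ either (0.29, in 4 of 6 mice, exact permutation, adjusted p = 0.281). The other 4 steps held in 6 of 6 mice each, with an adjusted p of 0.0469 by the same exact permutation test. Unadjusted, that test gave 0.0312, the smallest p that 6 mice allow. The neighboring pairs were set by the means in these same mice. In Spry2IEKO mice Spred2 (20.95) and Spry2 (20.04) changed places, again without a difference beyond the spread (log2 ratio of Spred2 over Spry2 0.06, exact permutation, adjusted p = 0.469).

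Transcripts were measured separately for Spry1, Spred1, Spred2 and Spred3. Of 15 member transcripts, 9 had a mean of at least 0.5 and were tested for genotype, and 0 passed (limma, 0.0022% of 45372 transcripts tested did). Unadjusted, 2 of the 9, Spry2-201 and Spry1-203, had a p under 0.05, beside 4.96% of all transcripts. How far sister transcripts can be told apart was read from their sequences, as stretches of 31 bases found in one transcript and not in its sisters. No such stretch was shared between different members, with Spry3 not included, so reads of that length belong to a single annotated paralog.

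Spred2 has a pair of abundant coding transcripts that differ by a cassette exon. Spred2-202 (7 exons, 437 residues) includes an exon of 81 bases at chr11:20001009-20001089 on the plus strand of GRCm38, and Spred2-201 (6 exons, 410 residues) skips it. The exon holds 27 codons and keeps the reading frame. The sequences show the exon in capitals with 15 bases of coding sequence on each side, and the junction that replaces it, because this junction is nearly all that marks Spred2-201.
Spred2-202: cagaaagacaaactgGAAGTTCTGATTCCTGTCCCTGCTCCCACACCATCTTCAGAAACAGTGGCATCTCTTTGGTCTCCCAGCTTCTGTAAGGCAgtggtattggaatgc
Spred2-201: cagaaagacaaactggtggtattggaatgc
Only 29 of the 2822 stretches of 31 bases in Spred2-201 (1.03%) are absent from its sisters, compared with 1516 of 4419 (34.3%) in Spred2-202, which also ends 1449 bases further downstream.

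The estimates assigned most of the Spred2 RNA to Spred2-202. They rest on whole transcripts, whose ends also differ, and inclusion of the exon itself was not measured. Spred2-202 made up 83.2% ± 5.25 (SD, n = 6) of Spred2 in Spry2IEKO and 82.1% ± 5.26 (SD, n = 6) in control mice, and genotype made no difference beyond the spread (exact permutation p = 0.721). The smaller form separated by litter instead, a comparison added once these values were known. Spred2-201 was 3.48 to 5.72 normalized TPM in litter A and 1.32 to 3.31 in litter B, with no overlap, and both genotypes contributed 3 mice to each range. All litter B mice were below all litter A mice for 1.69% of the transcripts tested. Spred2-202 was 17.6 to 19.2 in litter A and 14.8 to 20.5 in litter B, and here the litters overlapped. With genotype as a covariate, Spred2-201 changed by -0.78 from litter A to B (SE 0.198, limma adjusted p = 0.0756), and Spred2-202 by -0.04 (SE 0.0794, adjusted p = 0.84). Of the 9 member transcripts 0 passed this test, beside 1.31% of all transcripts, and 1 had an unadjusted p under 0.05, beside 18.3%.

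**Figure D3:**
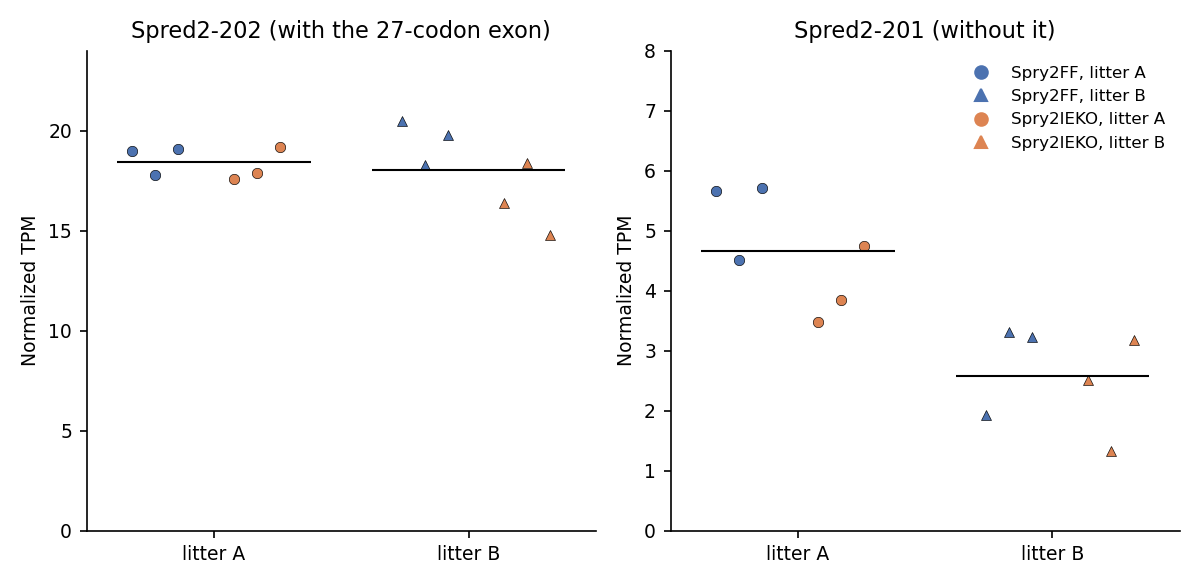
Normalized TPM (vertical axes, linear from 0, with different ranges) of Spred2-202, which includes the 27-codon exon, and of Spred2-201, which skips it, for each mouse by litter (horizontal axis) and genotype (color), with the mean of each litter as a line. Spred2-201 lies at 3.48 to 5.72 in litter A and 1.32 to 3.31 in litter B, and Spred2-202 at 17.6 to 19.2 and 14.8 to 20.5.

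Spry1 has 3 annotated transcripts with the same coding exon of 313 residues. They differ only outside the coding sequence, and 68 of 2451 stretches of 31 bases in Spry1-201 (2.77%) and 39 of 2421 in Spry1-203 (1.61%) are absent from the sisters. Spry1-201 was under 0.01 normalized TPM in 5 mice, namely all 3 Spry2IEKO mice of litter B and 2 Spry2FF mice, and 1.41 to 3.73 in the other 7. In the 5 mice, Spry1-203 was 6.03 to 11.1 and held all or nearly all of the gene's value. Both Spry2FF mice with almost no Spry1-201 belonged to litter A (replicates 3 and 7).

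Between genotypes, Spry1-203 was 4.93 to 11.1 normalized TPM in Spry2IEKO mice (median 7.21) and 2.39 to 9.27 in Spry2FF mice (median 3.13). The genotype means were 6.74 and 6.73 in litter A and 8.18 and 2.88 in litter B, so the difference lay in litter B, though the difference between litters was not tested for transcripts. Its log2 change was 0.73 (SE 0.329, limma unadjusted p = 0.0448, adjusted p = 0.988), and that of Spry1-201 was -0.66 (SE 0.738, adjusted p = 0.988). The Spry1-201 change was -1.05 with a pseudocount of 0.1, and -1.03 to -0.41 with 1 mouse left out. The share of Spry1-203 in the gene was 86.9% ± 15.9 (SD, n = 6) and 65.6% ± 28.5 (SD, n = 6; exact permutation p = 0.165).

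**Figure D4:**
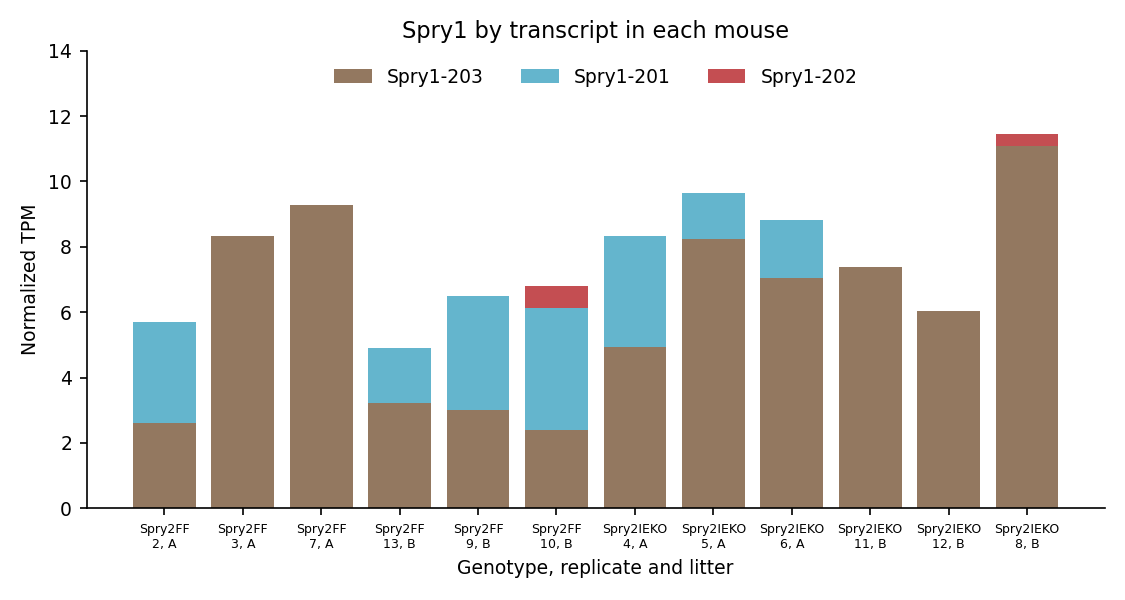
Normalized TPM of the 3 Spry1 transcripts stacked in 1 bar per mouse (vertical axis, linear from 0), with genotype, replicate and litter under each bar. Spry1-201 is under 0.01 in 5 mice, where Spry1-203 is 6.03 to 11.1, and Spry1-202 is above 0 in 2 mice.

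The remaining transcripts were low or followed their gene. Spred1-201, the full-length form of 444 residues, was 13.3 ± 1.89 (SD, n = 6) in Spry2IEKO and 11.7 ± 1.49 (SD, n = 6) in control mice, and the shorter Spred1-202 averaged 0.408 over all mice. Spred3 was split between the coding Spred3-201 (408 residues), at 0.759 ± 0.142 (SD, n = 6) and 0.677 ± 0.1899 (SD, n = 6), and transcripts annotated without a coding sequence. Of these the retained intron Spred3-203 was the largest, at 0.933 ± 0.498 (SD, n = 6) and 0.685 ± 0.401 (SD, n = 6), and it has 0 stretches of 31 bases of its own, so its reads also fit sister transcripts. Its share of Spred3 was 43.1% ± 18.4 (SD, n = 6) and 38.1% ± 11.4 (SD, n = 6; exact permutation p = 0.569). The difference of 5.01 points was 0.81 without Spry2FF replicate 13 and 11.9 without Spry2IEKO replicate 8 (exact permutation p = 0.939 and 0.0779). Spred2-203 averaged 0.262 and was above 0 in 5 mice, Spred3-202 averaged 0.335, and Spred3-204 was above 0 in 1 mouse.

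The genes around the family in the pathway were counted in 3 lists. The lists were chosen with earlier results of these data known. Among 18 ERK feedback and response genes, 1 rose and 0 fell at a limma adjusted p under 0.05, beside 0.0315% of all genes tested. At an unadjusted p under 0.05, 3 were higher and 1 lower, beside 6.18% of all genes. Their changes ran from -0.19 to 0.98 with a median of 0.13, beside 0.01 over all genes. Etv4, an ETS factor transcribed in response to ERK, was 21.02 to 26.1 normalized TPM in Spry2IEKO and 9.22 to 18.0 in Spry2FF mice (log2 change 0.98, SE 0.146, limma adjusted p = 0.043). Its log2 change was 0.91 to 0.98 with covariates, while the adjusted limma p was 0.0532 with litter, 0.169 with sex, 0.176 with litter and sex and 0.898 with epithelial markers. That p was 0.0505 after scaling to equal totals and 0.17 without Spry2IEKO replicate 11, and it was under 0.05 in 1 of the 12 cases with 1 mouse left out, without Spry2FF replicate 10. Etv5, a close relative, was 6.59 ± 1.48 (SD, n = 6) and 3.59 ± 1.09 (SD, n = 6; log2 change 0.81, limma adjusted p = 0.345). Dusp6, the phosphatase that inactivates ERK, was 36.1 ± 4.18 (SD, n = 6) and 25.8 ± 3.72 (SD, n = 6; log2 change 0.48, limma adjusted p = 0.25).

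**Figure D5:**
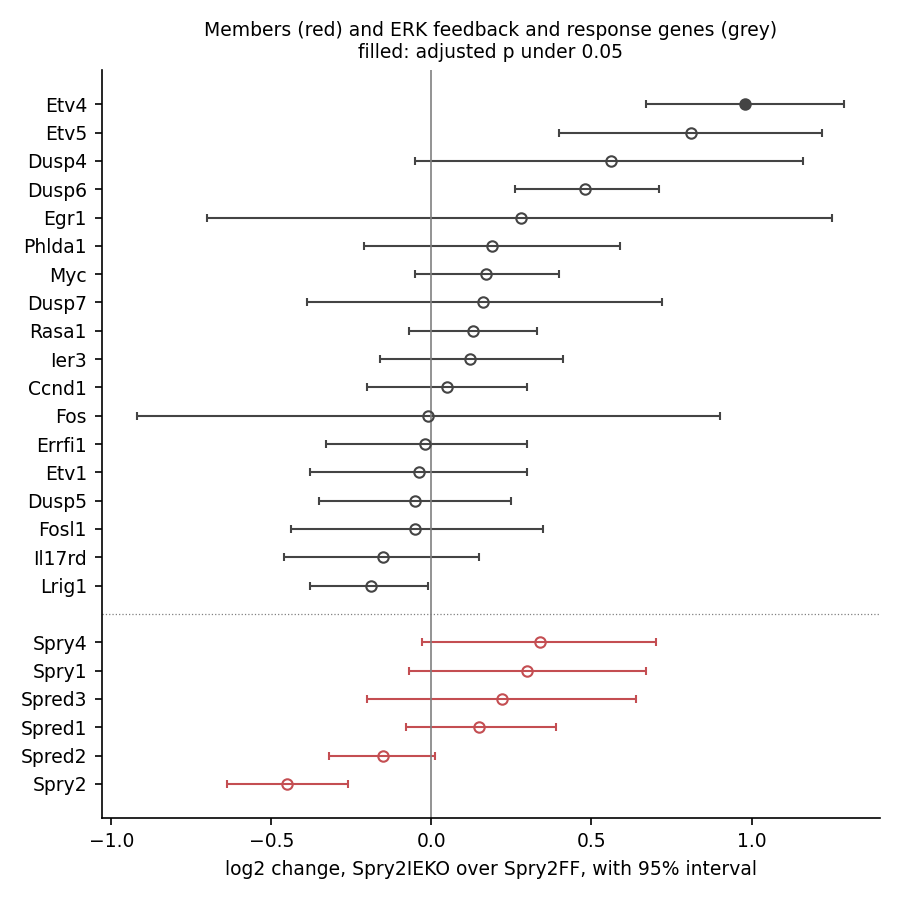
Log2 change of Spry2IEKO over Spry2FF (horizontal axis) with 95% interval from limma for the 6 tested members (red, below the dotted line) and the 18 ERK feedback and response genes (grey, above it), ordered by change. Etv4, at 0.98, is the filled point, with an adjusted p of 0.043, and the members run from -0.45 for Spry2 to 0.34 for Spry4.

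Of 28 genes whose proteins bind or regulate Sprouty and Spred proteins, 0 passed after adjustment, beside 0.0315% of all genes tested. One of them, Tes, had an unadjusted limma p under 0.05, beside 6.18% of all genes. Tes, which encodes the focal adhesion protein testin, averaged 136 ± 11.2 (SD, n = 6) without and 158 ± 12.8 (SD, n = 6) with epithelial Spry2 (log2 change -0.22, limma adjusted p = 0.674). Ppp2r1a, a scaffold subunit of the phosphatase PP2A, changed by -0.10 (SE 0.0583), and the kinase gene Mknk1 by 0.12 (SE 0.0696). The median of the list was -0.05.

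Of 20 receptor tyrosine kinases upstream, 19 were tested and 0 passed after adjustment, beside 0.0315% of all genes. At an unadjusted limma p under 0.05 there were 0, beside 6.18% of all genes. The 3 with the lowest p were Kit, the receptor of interstitial cells of Cajal and mast cells (0.29, SE 0.144), Ntrk2 (0.49, SE 0.275) and Ret, the receptor of enteric neurons (-0.20, SE 0.143). Ntrk2 entered the test through the Spry2IEKO group (mean 0.878, highest mouse 2.47), since its Spry2FF mean of 0.404 was under the limit of 0.5, and its estimate was 0.79 in litter A against 0.19 in litter B. Their median was 0.03.

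The genes whose levels followed each member most closely across the 12 mice were picked as the 3 with the highest Pearson r among 10709 or 10710 genes with a mean of at least 5, so the r values are a description without a test. All points share the 12 libraries, both genotypes and both litters. Spry2 was followed by Efna4 (r = 0.83, Spearman's rho = 0.85), B4galnt2 (0.83 and 0.77) and Mafk (0.82 and 0.86). These 3 had log2 changes between genotypes of -0.40, -1.25 and -0.17, beside -0.45 for Spry2. Spry4 was followed by F3, the gene of tissue factor (0.90 and 0.98), Igkv6-25, an immunoglobulin light chain segment (0.89 and 0.86), and Kctd14 (0.88 and 0.87). Spry1 was followed by Klhl24 (r = 0.91), Hbp1 (0.90) and Ptar1 (0.87). Spred1 was followed by Tigd2 (r = 0.98), Mia2 (0.95) and Thap2 (0.93), and Spred2 by B3gnt7 (0.93), Tfe3 (0.92) and Tm9sf1 (0.92). Spred3 was followed by Sh3bp1 (r = 0.88), Sgpp1 (0.85) and Terf2 (0.85). Without the 2 mice farthest from each member's median, these r values ran from 0.74 to 0.98. Spry1, Spry2, Spred1 and Spred2, the members abundant enough to be ranked, were not among the 3 nearest genes of another member.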

How the data were processed

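RNA of 12 distal colons was sequenced mouse by mouse and quantified with kallisto against mm10 transcripts. CASAVA and sleuth are also named in the submitters' processing notes, without versions. The deposited table gives signal values, which are TPM scaled once more between mice, so a change is relative to the rest of the RNA, and low-level and sister-transcript values carry estimation error. The 781 repeated entries were dropped and transcripts were summed per gene. With means under 0.5 left out, genes and transcripts went into limma 3.58.1 (R 4.3.3) on log2(value + 0.5), which understates changes near 0.5, with Benjamini-Hochberg adjustment over all of them and no covariate. Single members were compared by exact two-sided permutation tests (Python 3.11.15 with SciPy 1.17.1, NumPy 2.4.6 and pandas 2.3.3). Plots used matplotlib 3.10.9. Both tests were tested on simulated data. Members, lists and alternatives were chosen with earlier results of these data known.

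Named genes were all members and transcripts, list genes past the threshold, the 3 of each list with the lowest p, the 3 genes most like each member, and tested neighbors of Spry2. Positions and sequences come from GENCODE M21 (GRCm38), which held 96.6% of the transcript identifiers. Spry3 was not matched there. Alternatives were the pseudocount (0.1 and 1), the filter, litter, sex and epithelial markers as covariates, females or 1 litter alone, scaling, and leaving out each mouse. Separate mice were the replicates, and no genotype shared replicate numbers with the other. Some items are not reported here.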

Additional observations from a re-analysis of the deposited data

Results flagged for a closer look

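The values of each member and of the tested sister transcripts were examined for a mouse far from the other 5 of its genotype, in 28 groups of 6, of which chance alone flags about 1 in 20. In 1 group a mouse stood apart. Spred3-201, the coding Spred3 transcript, was 0.471 normalized TPM in Spry2IEKO replicate 4, while the other 5 Spry2IEKO mice lay between 0.782 and 0.849.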

How the results depend on the processing

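Over the alternatives fixed at the start, the log2 change of Spry2 ran from -0.55 to -0.44, and from -0.51 to -0.41 with 1 mouse left out, with adjusted p-values of 0.0952 to 0.987 by limma, and 0 members passed in any fit. The difference of means of Spred2 lost its exact permutation p under 0.05 after scaling to equal totals (-2.74) and in females alone (-2.12), and ran from -3.07 to -1.81 with 1 mouse left out. Spry4 reached an exact permutation p under 0.05 within litters (0.66) and on the log2 scale (0.338), with 0.479 to 0.804 when 1 mouse was left out, and Spry1 ran from 1.13 to 2.21. Directions turned for Spred1 with epithelial markers as a covariate (-0.05), Spred3 in litter B alone (-0.01), Spry2 over Spred2 in Spry2IEKO mice (-0.06), the Spred2-202 share (-0.916 to 2.54 with 1 mouse left out) and the Spred2-202 litter change (0.01 without Spry2IEKO replicate 8), and the cause was not tested. Across all genes, 5 passed. It was 3 without the variance trend and with means of at least 5; 2 in females, in litter A, after quantile normalization and for the most abundant transcript; and 1 with epithelial markers, sex, or litter and sex as covariates, in litter B and without a filter. With 1 mouse left out the count was 1 to 11, highest without Spry2IEKO replicate 8. Of all transcripts 1 passed, 0 with litter and sex as covariates, 2 without a filter and 0 to 4 with 1 mouse left out. The genotypes share no replicate number, so mice were matched by litter alone (litter as a covariate, or exchange within litters). The values hold no read counts, and splits between sister transcripts rest on few distinguishing bases.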
